A study of Mus musculus with 4 samples.

Results

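Tumour-associated neutrophils were examined in dissociated mouse lung tumours by droplet-based single-cell RNA sequencing. The cells were chosen on measured values: a barcode with at least 200 detected genes and at most 20% mitochondrial UMIs was taken when it held at least 20 S100a8 and S100a9 UMIs, at least 2 UMIs of Csf3r, Retnlg, Cxcr2 and Il1r2 together, at most 3 UMIs of the 3 C1q genes, and no UMI of Cd3e, Cd79a or Epcam. A UMI is a molecular tag that counts captured transcripts. The gate held 734 of 13531 barcodes in 2 libraries made before leukocyte depletion, out of 28085 barcodes that passed the cell filter in the 4 libraries of the series. Levels of the 12 gate genes describe how the cells were picked and are not results.

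The mice, called KPH, carried the alleles p53frt, Rosa-FSF-CreERT2 and Hnf4aflox among their engineered alleles. Tumours were started by airway delivery of an adenovirus expressing FlpO recombinase under the mouse surfactant protein C promoter, a promoter of alveolar epithelial cells; Flp switches on the tamoxifen-inducible Cre. Tamoxifen or vehicle was injected 10 weeks after infection, and tumours were collected 2 weeks later. By the labels both groups shared the genotype and the virus and differed in the injection. The library titles, however, read KP for vehicle and KPH for tamoxifen. Treatment cannot be told apart from animal, suspension or library here. Tumours were dissociated, and the pre-depletion fraction used here was frozen before CD45-positive and CD31-positive cells were removed from the remainder. Each group had 1 library. The labels do not give the number of animals or tumours per suspension, so no replicate spread could be measured and no test was possible. Intervals below are 95% intervals that cover counting error only.

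Neutrophils are short-lived granulocytes that mature in the bone marrow and enter tissue along CXCR2 ligands, under the control of G-CSF, the ligand of the Csf3r receptor. Their granule proteins are made in sequence during maturation, and transcription of many of them largely stops before release. S100a8 and S100a9, the subunits of calprotectin, stay abundant. In lung tumours of mice, neutrophils range from blood-like cells to cells with Siglecf that have remained in the tumour.

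The vehicle library gave 439 neutrophils of 7304 barcodes, a share of 6.01% (Clopper-Pearson interval 5.48 to 6.58). The tamoxifen library gave 295 of 6227, a share of 4.74% (4.22 to 5.29). The shares are of barcodes and depend on every other cell recovered. Dropping the S100 minimum gave 10.99% and 8.93%, and requiring 50 S100 UMIs gave 4.57% and 3.66%; the vehicle share was the larger under each of the 9 gate and filter settings tried. Barcodes failing on the S100 minimum alone numbered 364 and 261. Just inside it, at 20 to 29 UMIs, Siglecf was detected in 37.7% of 53 vehicle cells and 54.8% of 31 tamoxifen cells. Just outside it, at 10 to 19 UMIs, it was detected in 26.4% of 53 and 37.5% of 40 cells. Most of the barcodes outside, 311 and 221, had 0 to 9 UMIs, and there Siglecf was detected in 17.4% and 23.98%. The class II gene H2-Ab1 stood at 2128 and 2310 CPM in those barcodes, against 196 and 77.3 CPM just inside the minimum. At 10 to 19 UMIs it stood at 457 and 88.3 CPM. Csf3r stood at 1730 and 1637 CPM there, against 1786 and 1612 CPM in all gated neutrophils. Retnlg stood at 74.7 and 16.1 CPM, against 2355 and 2168 CPM.

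The neutrophils were small in RNA content. Their median was 3657 UMIs and 1363 genes in the vehicle library and 3959 UMIs and 1470 genes in the tamoxifen library, against 10188 and 10483.5 UMIs in the other barcodes. Mitochondrial transcripts made up a median of 0.256% and 0.332% of their UMIs, against 3.90% and 4.08% elsewhere. Summed over cells, 2064307 and 1373401 UMIs stood behind the levels given below, which are UMIs divided by that sum and scaled to a common total (CPM). Among genes outside the gate, those most concentrated in the cells were Ngp, Camp, Cstdc5, Stfa2l1, Cstdc4, Ltf, Acod1, G0s2, F630028O10Rik and H2-Q10. Acod1 makes itaconate, and G0s2 restrains lipolysis. The primary granule genes Mpo, Elane and Ctsg, typical of marrow promyelocytes, had no UMI in either library.

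The neutrophil markers were gate genes and cannot check the label, and some barcodes also held transcripts of other cells. The eosinophil genes Il5ra, Epx and Prg3, the mast cell and basophil genes Mcpt8, Cpa3 and Fcer1a and the haemoglobin genes had 0 UMIs. The 7 eosinophil genes together had 1360 and 1055 UMIs, 658.8 and 768 CPM, nearly all from Cd24a (1151 and 821 UMIs), which neutrophils also express, and Siglecf (207 and 225 UMIs). The eosinophil genes Ccr3 and Prg2 had 2 and 0 UMIs with vehicle and 8 and 1 with tamoxifen. The 6 mast cell and basophil genes together had 8 and 9 UMIs. At least 10 UMIs of one other-class marker list, not counting Siglecf, Cd24a and Apoe, were present in 58 vehicle and 36 tamoxifen neutrophils, called mixed barcodes here. They held 29.2% and 24.3% of all neutrophil UMIs. Over all neutrophils, the dendritic cell list summed to 1515 CPM with vehicle and 523 CPM with tamoxifen, and 28.9% of the vehicle sum came from 1 barcode. The 4 members of that list at 50 CPM or more were class II genes. The alveolar macrophage list summed to 467 and 812 CPM. The epithelial list summed to 650 and 1333 CPM, with 43.2% of the tamoxifen sum in 1 barcode. No doublet caller was run. Sftpc, the surfactant gene of alveolar epithelium, had a UMI in 84.1% and 90.2% of neutrophils, at 2.37% and 4.01% of its CPM in the other barcodes. In the tamoxifen library 47.9% of those UMIs were in 1 barcode, and the level without it was 2.09% of that in the other barcodes. The 2 libraries shared 16 cell barcodes, none of them a neutrophil in both.

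Hnf4a, the gene the treatment targets in tumour cells, had 1 UMI in the neutrophils of each library. In barcodes with at least 2 Epcam UMIs it stood at 32.2 CPM (30.8 to 33.7) with vehicle and 54.5 CPM (52.6 to 56.5) with tamoxifen. The labels do not give the floxed exons and 3′ counts do not show them, so each direction below belongs to a labelled library, and loss of Hnf4a was not shown.

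The first question was which genes of the neutrophils differed between vehicle and tamoxifen tumours. Most did not differ by much: the median log2 ratio of tamoxifen over vehicle was -0.02 over 3356 genes that reached 50 CPM in either library. By a rule of size, 36 genes were at least 2-fold higher with tamoxifen, 1.07% of those considered, and 36 were at least 2-fold lower, also 1.07%. Ratios were taken with a pseudocount of 1 CPM. Many of the 72 rested on very few cells. In 18 of the higher and 18 of the lower genes more than 25% of the UMIs in the library with the higher level came from 1 neutrophil. When the highest cell of each gene was left out of each library, 26 of the 36 higher and 31 of the 36 lower genes were still past 2-fold. Over all genes, with the 50 CPM minimum applied again to what was left, 18 were higher and 25 lower.

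**Figure D1:**
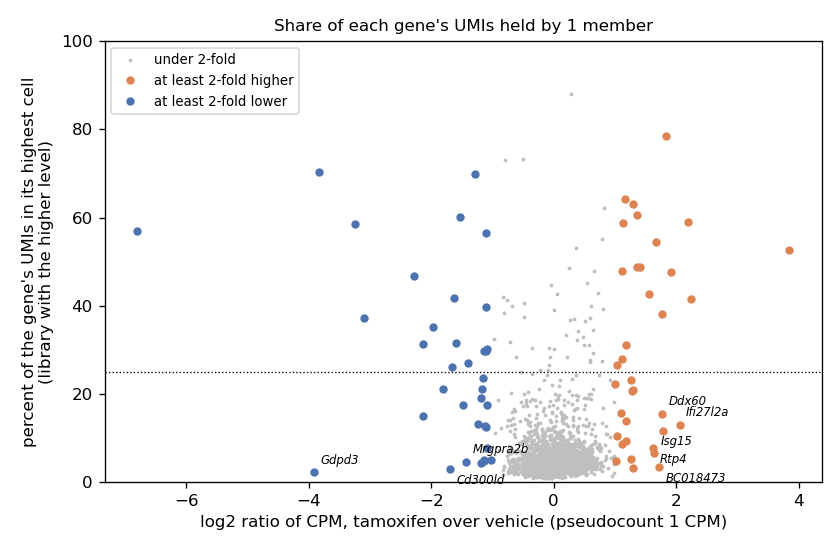
The horizontal axis gives the log2 ratio of CPM, tamoxifen over vehicle, and the vertical axis the percentage of the gene's UMIs that 1 neutrophil held in the library with the higher level. Each point is 1 of 3356 genes; those at least 2-fold apart are coloured and the dotted line marks 25%. The 8 named genes lie below the dotted line.

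Of 30 genes named by rank, 8 were at least 2-fold apart, in 1 direction, under each of 17 alternative settings of the gate, the scaling and the counting. Ifi27l2a, Isg15, Rtp4, Ddx60 and BC018473 were higher with tamoxifen, and Gdpd3, Cd300ld and Mrgpra2b were lower. Isg15 encodes a ubiquitin-like protein that is attached to other proteins after interferon signalling. Rtp4 is an interferon-induced chaperone of membrane receptors, Ddx60 an antiviral helicase, and Ifi27l2a a small interferon-induced membrane protein. Cd300ld is an immunoglobulin-family receptor of myeloid cells, Gdpd3 a lysophospholipase D, and Mrgpra2b a Mas-related G protein-coupled receptor that neutrophils express.

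Isg15 stood at 74.1 CPM (62.8 to 86.8) in vehicle neutrophils and 234 CPM (209 to 261) in tamoxifen neutrophils, a 3.12-fold difference. It was detected in 65 of 439 and 79 of 295 cells. After each cell was thinned to 1000 UMIs, which left out 3 vehicle cells and 1 tamoxifen cell, the share was 5.73% (3.74 to 8.35) and 13.6% (9.90 to 18.1). More tamoxifen cells thus had a transcript at equal depth, and the cell with the most held 6.54% of the tamoxifen UMIs. Ifi27l2a stood at 83.8 CPM (71.8 to 97.3) with vehicle and 352 CPM (321 to 384) with tamoxifen, 4.16-fold apart, with thinned shares of 2.98% and 15.3%. T cells gated on Cd3e had Ifi27l2a more often at that depth, in 17.5% and 26.25%. A related neighbour, Ifi27l2b, could take or give some of its reads, which was not tested. Rtp4 stood at 26.6 CPM (20.1 to 34.7) and 84.5 CPM (69.8 to 101), and was seen in 32 of 439 and 59 of 295 cells. Ddx60 was rarer, at 14.5 CPM (9.81 to 20.7) and 51.7 CPM (40.4 to 65.2), and was seen in 5.01% and 13.9% of cells. After thinning, Ddx60 was seen in 2.06% (0.95 to 3.88) and 5.44% (3.14 to 8.69), and those intervals overlapped. None of the 4 pairs of CPM intervals overlapped, but the genes were ranked by such intervals, so this follows from the choice.

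The DNA upstream of Isg15 and Ddx60 is shown because both genes carry the core of the interferon-stimulated response element there. Capitals mark matches to GAAA, any 2 bases and GAAA again on either strand, the 250 bases end just before the annotated start, and both are read 5′ to 3′ on the gene's strand from RefSeq, build GRCm38.p6. The Isg15 window is chr4:156200819-156201068 on the minus strand, and its 3 overlapping matches form 1 run. The Ddx60 window is chr8:61927837-61928086 on the plus strand and has 2 separate matches.
Isg15: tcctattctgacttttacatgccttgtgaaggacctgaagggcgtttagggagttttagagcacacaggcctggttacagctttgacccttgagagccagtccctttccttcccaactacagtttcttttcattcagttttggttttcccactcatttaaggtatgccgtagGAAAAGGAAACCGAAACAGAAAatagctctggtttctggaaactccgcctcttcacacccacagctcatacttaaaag
Ddx60: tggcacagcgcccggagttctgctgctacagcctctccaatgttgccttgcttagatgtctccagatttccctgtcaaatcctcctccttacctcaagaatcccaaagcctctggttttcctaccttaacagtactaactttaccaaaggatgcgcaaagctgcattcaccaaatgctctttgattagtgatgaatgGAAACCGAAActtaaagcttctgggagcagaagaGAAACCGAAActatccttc
A match was present in 3.46% of the 27025 genes with such a window. Windows were found for 36 of the 42 interferon genes measured, and 16 of those 36 genes held a match. A match is a run of letters and says nothing of factor binding in these cells.

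BC018473, an uncharacterised transcribed locus at chr11:116752167-116759373, was the most abundant of the 8. It stood at 429 CPM (401 to 458) with vehicle and 1415 CPM (1353 to 1479) with tamoxifen, a 3.29-fold difference. It was detected in 33.5% of vehicle and 69.8% of tamoxifen neutrophils, and in 18.1% and 48.3% after thinning. At the same depth, 5.96% and 13.6% of the T cells gated on Cd3e had a UMI. Its level was higher in neutrophils than in the 5 other gates of either library, the next being T cells at 63.8 and 199.5 CPM.

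Gdpd3 at chr7:126766334-126775649 had the largest difference of the 8. It stood at 222 CPM (202 to 243) with vehicle and 13.8 CPM (8.33 to 21.6) with tamoxifen, 15.02-fold apart. It was detected in 157 of 439 vehicle cells and 16 of 295 tamoxifen cells. Its share after thinning was 18.3% and 0.340%, against 8.03% and 0% of the T cells gated on Cd3e. Cd300ld at chr11:114982274-114989922 stood at 277 CPM (255 to 301) and 85.2 CPM (70.5 to 102), 3.23-fold apart. It was detected in 58.8% and 23.1% of neutrophils, and in 27.1% (22.9 to 31.5) and 6.46% (3.94 to 9.91) after thinning. T cells gated on Cd3e had it in 0.229% and 0.179% at that depth. Mrgpra2b, whose reads could be split with its close copy Mrgpra2a, stood at 137 CPM (122 to 154) and 50.2 CPM (39.1 to 63.6). The 3 lower genes were each spread thinly over many vehicle cells, none of which held more than 4.59% of a gene's vehicle UMIs.

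**Figure D2:**
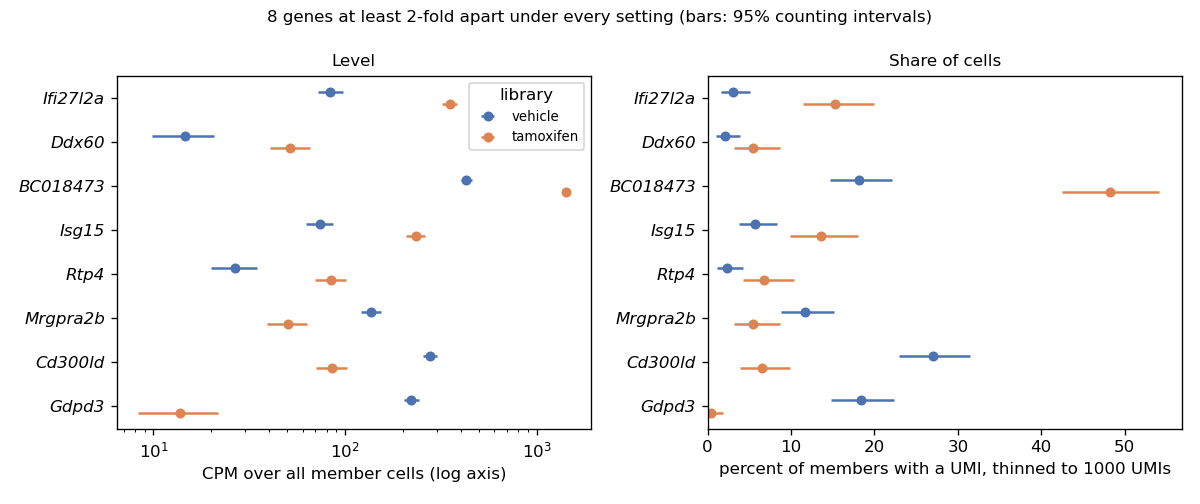
The left panel gives CPM on a log axis and the right panel the percentage of neutrophils with a UMI after thinning to 1000 UMIs, for 8 genes in the vehicle and tamoxifen libraries. Bars are 95% counting intervals. The 5 upper genes sat higher with tamoxifen in both panels and the 3 lower genes sat lower.

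Whether these differences were also present in other cells was read from gates in the same libraries, which use other genes and other barcodes. Those gates also hold transcripts of other cells: Sftpc had a UMI in 86.7% of vehicle and 92.3% of tamoxifen T cells. The part of such transcripts, those of neutrophils among them, in the ratios below was not tested. BC018473 was higher with tamoxifen in each of the 5 other gates, with log2 ratios from 0.87 in Epcam-gated barcodes to 2.10 in the Ly6c2 and Ccr2 gate. Gdpd3 was lower in each, from -1.50 in the Ly6c2 and Ccr2 gate to -5.13 in Cd79a-gated B cells, where 1 tamoxifen UMI remained. Isg15 was higher in each, from 0.61 in the Mrc1, Ear1 and Plet1 gate to 2.08 in the Ly6c2 and Ccr2 gate, and Ifi27l2a from 0.67 in Epcam-gated barcodes to 1.83 in B cells. Rtp4 was also higher in each, from 0.61 in the Mrc1, Ear1 and Plet1 gate to 1.46 in the Ly6c2 and Ccr2 gate. In B cells Rtp4 had 3 and 4 UMIs. Cd300ld had ratios of -0.84 (-1.05 to -0.69) in the Mrc1, Ear1 and Plet1 gate and -0.91 (-1.20 to -0.83) in Epcam-gated barcodes, smaller than the -1.69 (-2.00 to -1.41) in neutrophils. Its ratio was -0.96 (-2.78 to -0.13) in T cells. The Cd300ld intervals included 0 in B cells, at -0.12 (-1.36 to 0.98), and in the Ly6c2 and Ccr2 gate, at -0.77 (-1.75 to 0.11). Ddx60 stood apart most in neutrophils, at 1.76 (1.20 to 2.498), against 0.55 (0.42 to 1.05) in Epcam-gated barcodes, 0.39 (0.11 to 0.77) in the Mrc1, Ear1 and Plet1 gate and 0.33 (-0.06 to 0.74) in T cells. The differences between gates were not tested, and the Ly6c2 and Ccr2 gate held 65 and 48 cells.

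**Figure D3:**
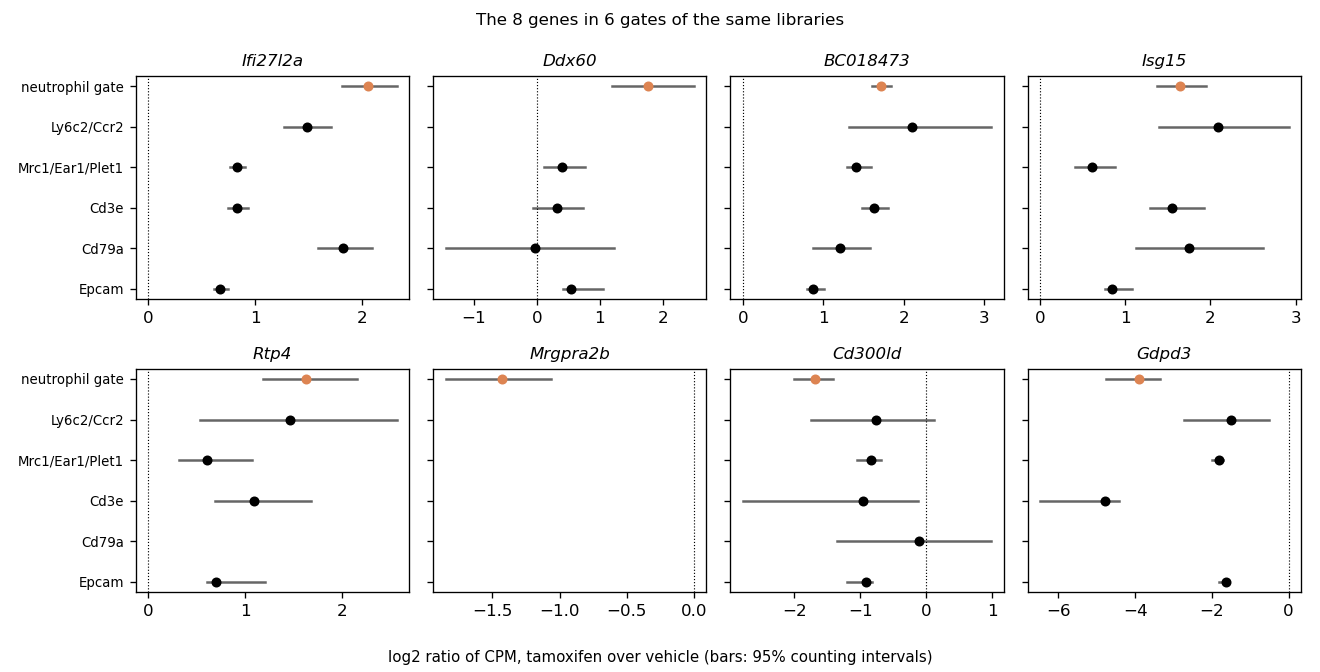
Each panel gives 1 gene, and each point the log2 ratio of CPM, tamoxifen over vehicle, in 1 gate, with its 95% counting interval. Gates with under 4 UMIs in a library or under 3 CPM in both are left blank. The points of BC018473, Isg15, Ifi27l2a, Rtp4, Cd300ld and Gdpd3 each lay on the same side of 0 in every gate drawn. The Cd300ld intervals included 0 in the Cd79a gate and in the Ly6c2 and Ccr2 gate. Ddx60 was farthest from 0 in neutrophils.

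1600014C10Rik, chosen after its values were seen because the naming rule leaves out such names, had its largest ratio in neutrophils. It stood at 473 CPM with vehicle and 1162 CPM with tamoxifen in neutrophils, and was detected in 59.2% and 78.0% of them. Its log2 ratio was 1.29 (1.18 to 1.41) there, against 0.33 (0.22 to 0.46) in the Mrc1, Ear1 and Plet1 gate, 0.24 (0.15 to 0.36) in Epcam-gated barcodes, 0.04 (-0.11 to 0.18) in T cells and -0.58 (-1.12 to -0.10) in B cells. No cell held more than 3.20% of its tamoxifen UMIs.

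Car4 and Cxcl3 were also higher and spread over cells, but not past 2-fold in every setting. Car4, a carbonic anhydrase that is also an alveolar macrophage marker, stood at 123 CPM in vehicle and 295 CPM in tamoxifen neutrophils. It was detected in 14.8% and 28.1% of cells. The log2 ratio was 1.26 without the mixed barcodes too, and the part of macrophage RNA in it was not tested. Cxcl3, a CXCR2 ligand, stood at 536 and 1218 CPM in 21.2% and 24.1% of cells. H1f0, a linker histone, stood at 23.3 and 82.3 CPM.

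Several of the largest ratios came from 1 or a few barcodes. Ccl24, an eosinophil-attracting chemokine of macrophages, had 228 UMIs in 0.911% of vehicle cells and 0 with tamoxifen. Postn, Adgrl3, Akap12, Rhoj and Serpine2 were lower, and Ccn2, Kcnip4, Adgrl2, Igfbp3, Flt1, Iigp1 and Trp53i11 higher, each seen in under 7% of cells of either library. Postn and Ccn2 are matrix-associated genes and Flt1 is an endothelial receptor. Without the mixed barcodes the log2 ratio of Igfbp3 turned from 1.36 to -0.39, that of Trp53i11 from 1.67 to -0.64, that of Flt1 from 1.41 to -0.04 and that of Kcnip4 from 2.20 to -0.06.

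The second question was whether groups of neutrophil genes moved together. The interferon response list held 42 measured genes, of which 14 reached 50 CPM. Of these, 12 had ratios above 0, 3 were at least 2-fold higher and none was 2-fold lower. The median log2 ratio was 0.50, against -0.02 for all considered genes. The 3 were Isg15, Rtp4 and Cxcl10, a T cell chemokine, and 64.2% of the tamoxifen Cxcl10 UMIs came from 1 cell. Oasl2, an antiviral synthetase-like protein, stood at 132 and 261 CPM, a log2 ratio of 0.98 (0.75 to 1.22). Slfn5 stood at 44.1 and 80.8 CPM. Ifitm1, the most abundant member, went the other way, at 1709 and 1557 CPM. The summed list stood at 3924 CPM with vehicle and 4838 CPM with tamoxifen, a log2 ratio of 0.30 (0.26 to 0.35), and 0.20 without the mixed barcodes. The same sum had ratios of 0.36 in the Ly6c2 and Ccr2 gate, 0.28 in T cells and in B cells, 0.07 in Epcam-gated barcodes and 0.05 in the Mrc1, Ear1 and Plet1 gate. The list's share of a cell's UMIs had a median of 0.294% and 0.334%. The quartiles were 0.147% and 0.570% with vehicle and 0.174% and 0.662% with tamoxifen, so the cells of both libraries overlapped.

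**Figure D4:**
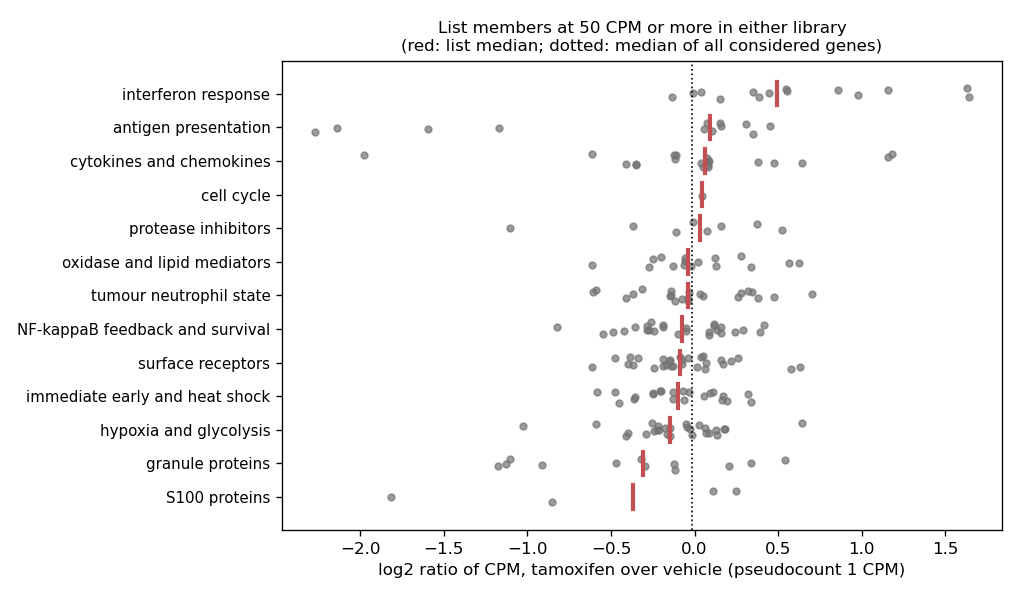
The horizontal axis gives the log2 ratio of CPM, tamoxifen over vehicle, and each row 1 of 13 gene lists. Points are list members at 50 CPM or more in either library, red bars the list medians and the dotted line the median of all 3356 genes. The interferon response list has the rightmost median, 0.50.

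Granule proteins summed to 9844 CPM with vehicle and 7085 CPM with tamoxifen. Of 12 considered members, 3 were at least 2-fold lower and none higher, with a median log2 ratio of -0.31 and a log2 ratio of the sum of -0.47, or -0.26 without the mixed barcodes. Camp, the cathelicidin precursor, stood at 1997 CPM with vehicle and 912 CPM with tamoxifen, but was seen in 3.42% and 1.36% of cells, and 1 cell held 96.4% of the tamoxifen UMIs. Ngp stood at 1728 and 803 CPM, with 85.5% of the tamoxifen UMIs in 1 cell. Ltf, lactoferrin, stood at 533 and 235 CPM in 22.6% and 23.4% of cells, with 49.2% of the tamoxifen UMIs in 1 cell. Neutrophils with at least 10 Camp, Ngp and Ltf UMIs numbered 10 of 439 with vehicle, 2.28% (1.10 to 4.15), and 5 of 295 with tamoxifen, 1.69% (0.553 to 3.91). These few cells held 97.3% and 94.1% of the 3 genes' UMIs, and the counting intervals of their shares overlapped. Their median depth was 9951.5 and 7821 UMIs, above the 3657 and 3959 of all neutrophils, and 5 and 3 of them were mixed barcodes. At least 10 UMIs of the cell cycle list, not adjusted for that depth, were present in 7 of the 10 vehicle cells and 1 of the 5 tamoxifen cells. Mmp9, a gelatinase, was more evenly spread and stood at 1036 and 957 CPM in 81.8% and 81.7% of cells. Hp, haptoglobin, was at 1093 and 1382 CPM and Cd177, a surface glycoprotein, at 152 and 221 CPM.

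Cytokines and chemokines had the highest sum of the 13 lists, with 28 genes at 38963 CPM with vehicle and 41639 CPM with tamoxifen. Il1b, the pyrogenic cytokine, stood at 12920 and 13703 CPM and was detected in 97.9% and 99.3% of cells. Cxcl2, a neutrophil attractant that acts on Cxcr2, stood at 11750 and 12418 CPM in 91.6% and 95.6% of cells. Of 20 considered genes, Cxcl3 and Cxcl10 were at least 2-fold higher and Cxcl1 was lower, and the median log2 ratio was 0.06. Cxcl1 was seen in 3.64% and 4.75% of cells, with 35.1% of its vehicle UMIs in 1. Ccl3 stood at 1950 and 2713 CPM and Ccl6 at 979 and 1528 CPM. Ptgs2, the inducible cyclooxygenase, stood at 1347 CPM with vehicle and 878 CPM with tamoxifen, a log2 ratio of -0.62 (-0.72 to -0.52).

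Surface receptors had no member 2-fold apart among 29 considered, with a median log2 ratio of -0.09. Over all considered genes 2.15% were 2-fold apart, so a count of 0 in a list of 22 or 29 says little. Cd44, an adhesion receptor for hyaluronan, stood at 2113 and 1520 CPM, and the TNF receptor Tnfrsf1b at 424 and 277 CPM. Ly6g, the classical antigen used to identify mouse neutrophils, was low, at 65.4 and 102 CPM in 9.11% and 14.9% of cells. Genes of the Siglecf-high tumour neutrophil state had no member 2-fold apart among 22, with a median of -0.04. Siglecf itself stood at 100 CPM (87.1 to 115) and 164 CPM (143 to 187). Its share after thinning was 8.94% (6.44 to 12.03) with vehicle and 14.97% (11.1 to 19.6) with tamoxifen, against 0% and 0.357% of T cells. The log2 ratio was 0.70 (0.43 to 0.99) in neutrophils, 0.82 (0.69 to 1.002) in the Mrc1, Ear1 and Plet1 gate and 0.63 (0.54 to 0.80) in Epcam-gated barcodes. The alveolar macrophage list was also higher in the tamoxifen neutrophils, as given above, and its part was not tested. Cd274, which encodes PD-L1, stood at 292 and 371 CPM.

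Over all 3356 considered genes 2.15% were 2-fold apart, so a count of 0 or 1 in the short lists below says little about a list. NF-kappaB feedback and survival genes had 0 of 26 members 2-fold apart (median -0.07), and Tnfaip3, which switches that pathway off, had the largest ratio, at 584 and 330 CPM. Oxidase and lipid mediator genes had 0 of 16 (median -0.04) and immediate early and heat shock genes 0 of 22 (median -0.10). Hypoxia and glycolysis genes had 1 of 27, the hexokinase Hk3, lower at 67.8 and 32.8 CPM (median -0.15). Protease inhibitors had 1 of 8, Serpinb1a, lower at 51.3 and 23.3 CPM and seen in under 5% of cells (median 0.03). S100 proteins other than the gate genes had 1 of 4, S100a4, lower at 200 and 56.1 CPM (median -0.37). S100a4 was seen in 47 of 439 and 24 of 295 cells, and the log2 ratio of the list's sum was 0.11 (0.066 to 0.156). Of 18 cell cycle genes only Hmgb2 was considered, at 575 and 594 CPM. Antigen presentation genes had 4 of 12 lower and none higher, and the 4 were class II genes. H2-Ab1 stood at 337 and 75.7 CPM and was detected in 26.7% and 22.7% of cells, with 31.3% of the vehicle UMIs in 1 barcode. The same 4 genes were the only considered members of the dendritic cell list given above, so its lower sum was not a separate observation. Their UMIs also counted toward calling a barcode mixed. The log2 ratio of the antigen presentation list went from -0.19 to 0.19 without the mixed barcodes. The part of dendritic cell RNA was not tested.

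The third question was how the neutrophils differed among themselves. They were ordered by the share of UMIs from S100a8 and S100a9, a gate measure, and divided into 3 ranges of equal size. These are ranges of a continuous value and not cell types: 17 and 26 vehicle cells and 24 and 20 tamoxifen cells lay within 10% of the 2 limits, which were 1.73% and 5.62% of UMIs with vehicle and 1.83% and 5.86% with tamoxifen. Levels were taken without S100a8, S100a9 and the mixed barcodes, which left 109, 136 and 136 vehicle cells and 80, 83 and 96 tamoxifen cells from low to high. Of 944 genes at 200 CPM or more, 67 were at least 2-fold higher in the low range and 142 in the high range, in both libraries. Ranges were made from the same cells that are described, so these counts carry no test.

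Genes higher in the high range included granule and surface genes. Over all neutrophils, the mixed barcodes included, Camp stood at 2.33, 1.78 and 7601 CPM from low to high with vehicle and at 1.97, 2.44 and 3301 CPM with tamoxifen, so the few cells rich in granule transcripts lay in this range. Camp was seen in 8.16% and 2.02% of the high-range cells. The values that follow leave out the mixed barcodes again. Mmp8, neutrophil collagenase, stood at 6.75, 27.2 and 566 CPM with vehicle and at 9.16, 36.9 and 323 CPM with tamoxifen. Lcn2, an iron-siderophore binding protein, went from 47.2 to 1721 CPM and from 45.8 to 1421 CPM between the low and high ranges. Ly6g went from 4.50 to 191 CPM and from 18.3 to 312 CPM, and so was highest in this range. Ifitm1, Ifitm6, Anxa1, Wfdc21, Slc40a1 and Stx11 had the same order. Mmp9 was nearly even, at 1136 and 1528 CPM in the vehicle low and high ranges.

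Other genes were higher in the low range. Siglecf stood at 162, 134 and 32.5 CPM from low to high with vehicle and at 257, 248 and 62.9 CPM with tamoxifen. Csf1, the macrophage growth factor, went from 835 to 152 CPM and from 791 to 126 CPM. Icam1, an adhesion ligand, went from 504 to 111 CPM and from 318 to 62.9 CPM, and Havcr2, which encodes TIM-3, from 432 to 97.5 CPM and from 226 to 40.0 CPM. The activity-induced transcription factors Egr3, Nr4a2 and Nr4a3 and the cytokine Il1a had the same order. Tnf and Ccl3 were farthest apart between libraries in the high range. Tnf stood at 97.5 CPM there with vehicle and 289 CPM with tamoxifen, and Ccl3 at 457 and 2099 CPM, with 24.2% and 23.7% of the Ccl3 UMIs in 1 cell. In the low range the 2 libraries were closer, with Ccl3 at 4585 and 4151 CPM. Il1b stood between 13340 and 18500 CPM in all 6 combinations of range and library. Isg15 had no such order, at 124, 56.5 and 69.4 CPM from low to high in the vehicle library, and 183, 336 and 295 CPM in the tamoxifen library.

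**Figure D5:**
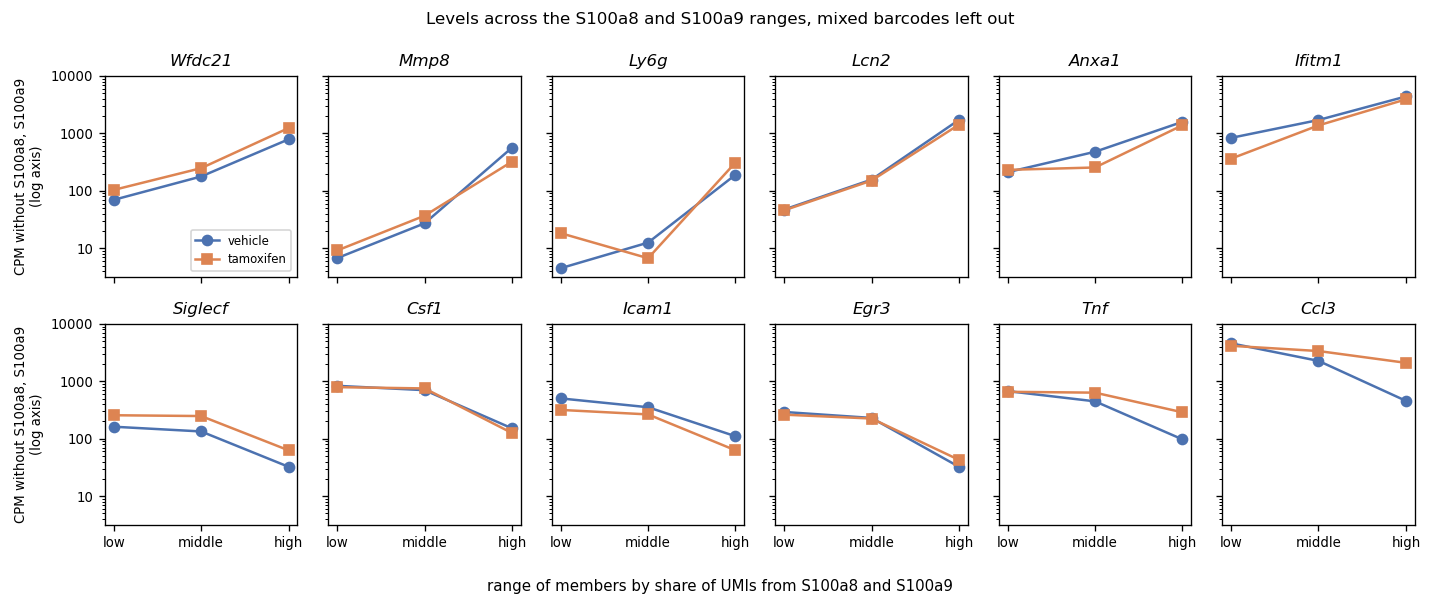
Each panel gives 1 gene, the horizontal axis the low, middle and high range of neutrophils by S100a8 and S100a9 share, and the vertical axis CPM without those genes on a log axis, for the vehicle and tamoxifen libraries with mixed barcodes left out. The upper 6 genes were highest in the high range and the lower 6 were lowest there, in both libraries.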

How the data were processed

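Per the labels' protocols, cells were sorted live and captured with 10x Genomics 3′ chemistry, version 3. The deposited files hold raw UMI counts per gene and barcode, made by Cell Ranger 7.0.1 per the file headers and 7.2.0 per the submitters' processing notes, on mm10 per those notes; the annotation and the treatment of introns and strand are not given in the sources used here. The 2 pre-depletion libraries held 104147479 and 92644997 UMIs. UMIs were summed over gated cells and divided by their total (CPM); ratios used a pseudocount of 1 CPM, with exact conditional binomial intervals, and shares Clopper-Pearson intervals, at 95%. With 1 library per group nothing was tested. The gate genes, members and gene lists were chosen with earlier results of these data known. Besides gate genes, the text names the 15 highest and 15 lowest genes by the bound of the ratio nearest to 0 (without mitochondrial, ribosomal, immunoglobulin, sex-linked, Gm and Rik genes and genes under 0.5 of the other barcodes' level), up to 4 genes by ratio and 4 by level in each list, and 20 leading genes. Other genes in the text were chosen after their values were seen. Alternatives changed the gate, cell filter, scaling (edgeR 4.0.16 TMM, median of ratios, mean of cells), depth, pseudocount, minimum level and fold. Those without mixed barcodes or without each gene's highest cell were chosen after seeing the data. The calculation was tested on simulated data. Gene positions are from GENCODE M21, which matched 32158 of 32289 features. Promoters were matched to RefSeq by symbol. Python 3 with numpy, scipy and pandas was used. Some items, 1 allele among them, are not reported here.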

Additional observations from a re-analysis of the deposited data

Results flagged for a closer look

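The libraries made after depletion of CD45-positive and CD31-positive cells enter no comparison here. The tamoxifen one still held 4 barcodes inside the neutrophil gate, of 7511 kept (0.0533%, 0.0145 to 0.136), above the limit of 3 set by a count of 0. The vehicle one held 2 of 7043.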

How the results depend on the processing

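With 1 library per group no replicate could be left out, and counting depth is the limit throughout. No paired analysis was possible because each group has 1 library. The neutrophil shares of 6.01% with vehicle and 4.74% with tamoxifen became 4.57% and 3.66% with at least 50 S100 UMIs, 10.99% and 8.93% with no S100 minimum, 5.26% and 3.89% with no C1q UMI, 3.07% and 1.48% without cells over 5 other-class UMIs, and 5.22% and 4.16% without mixed barcodes. The 36 higher genes became 66 with at least 50 S100 UMIs, 59 with no C1q UMI, 130 without cells over 5 other-class UMIs, 129 after thinning, 18 without each gene's highest cell, 279 and 10 at minimum levels of 10 and 200 CPM, 1155 with no minimum and 14 at a log2 ratio of 1.5. The 36 lower genes became 69 with no S100 minimum, 14 without cells over 3 times the median UMIs, 69 without cells over 5 other-class UMIs, 14 by the mean over cells, 217 and 10 at minimum levels of 10 and 200 CPM, 952 with no minimum and 15 at a log2 ratio of 1.5. The number of genes considered changed with the minimum level and the cells kept and is not given, so these counts cannot be compared as shares. The interferon ratio of 0.30 became 0.36 with at least 50 S100 UMIs, 0.23 without cells over 3 times the median UMIs, 0.20 without mixed barcodes, 0.25 by TMM and by median of ratios, 0.19 by the mean over cells and 0.24 without each gene's highest cell.

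Signs turned as follows. Without cells over 5 other-class UMIs, the log2 ratio was 0.047 for granule proteins, -0.21 for the tumour neutrophil state, -0.069 for cytokines, 0.24 for antigen presentation, 0.94 for Adgrl3, Postn and Serpine2, 2.80 for Akap12, 0.28 for Ifitm6, -1.86 for Igfbp3, 0.45 for Lcn2, 0.30 for Ltf, 1.31 for Ngp, 1.99 for Rhoj and -1.21 for Trp53i11. Without cells over 3 times the median UMIs it was -0.017 for the tumour state, 0.14 for antigen presentation, 0.82 for Adgrl3, 2.12 for Akap12, -0.39 for Igfbp3, 0.88 for Rhoj and -0.61 for Trp53i11. Without mixed barcodes it was -0.075 for the tumour state, 0.19 for antigen presentation, -0.042 for Flt1, -0.39 for Igfbp3, -0.062 for Kcnip4 and -0.64 for Trp53i11. The tumour state was at -0.012 with no C1q UMI, -0.0052 by TMM and -0.0075 by median of ratios. Antigen presentation was at 0.076 by the mean over cells and 0.023 after thinning, and protease inhibitors at -0.025 after thinning. With no S100 minimum, hypoxia was at 0.053, oxidase at 0.11 and Ccn2 at -0.68. The causes were not tested.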
